A study of Mus musculus with 16 samples.

Results

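Mycl1 was added to cells that already carried Nfib, and gene expression with both vectors was set against expression with Nfib alone. The comparison held 8 of the 16 arrays of the series, 4 labelled Nfib+Mycl1 and 4 labelled Nfib, chosen by label. The cells came from small cell lung cancer of the mouse, as the 2 lines 3583T3 and 3151T4, each grown out of 1 dissociated tumour in medium with serum, and each line gave 2 arrays per group. Nfib cells carried the retroviral vector MSCV-Nfib-PGK-Neo, with a FLAG-tagged mouse Nfib cDNA, and were selected with G418. Nfib+Mycl1 cells carried this vector and MSCV-L-myc-PGK-Puro, and puromycin was the selection for the second vector. All 8 arrays thus share the Nfib vector and its resistance gene, and the Mycl1 cDNA, its vector and puromycin selection cannot be told apart. The other arrays were untransfected control cells and cells with the Mycl1 vector alone. Age, sex and strain of the mice are not given in the sources used here. Nothing in the labels tells whether replicates came from separate cultures, and the p-values cover the spread among these arrays alone, which could be technical.

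Mycl1 is the older symbol of Mycl, the gene of L-Myc. Like Myc and Mycn, L-Myc is a transcription factor that pairs with Max and binds DNA at E-boxes, short palindromic motifs with CACGTG as the canonical form. MYC proteins are known for raising genes of ribosome assembly, nucleotide synthesis and cell growth, and the Mxd and Mnt proteins compete with them for Max. Mycl is amplified in a share of small cell lung cancers, a neuroendocrine tumour of the lung. Nfib belongs to the nuclear factor I family, transcription factors active in lung development, and is amplified in the mouse form of this tumour. The series asks what Nfib does as an oncogene there, and this comparison asks what Mycl1 changes in cells that already express it.

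The Mycl signal was read first, because it checks the labels. Signals are log2 values of the array, and a gene without signal lies near 2. On the Mycl probe set used, the 3151T4 arrays labelled Nfib had 2.55 (replicate 3) and 2.12 (replicate 4), and those labelled Nfib+Mycl1 had 10.34 and 9.99. In 3583T3, replicate 1 had 2.28 with Nfib and 11.05 with Nfib+Mycl1. In replicate 2 of that line, 10.22 was read under the Nfib label and 2.67 under the Nfib+Mycl1 label. These 2 arrays went against their labels, and the other 6 followed them. Over all 8777 genes tested, the array labelled 3583T3 Nfib replicate 2 correlated best with Nfib+Mycl1 replicate 1 (r = 0.9905) and less with the other array of its own label (0.9785). The array labelled 3583T3 Nfib+Mycl1 replicate 2 correlated best with Nfib replicate 1 (0.989) and less with its own label (0.9803). Each of the 12 arrays outside the 3583T3 Nfib and Nfib+Mycl1 groups correlated best with its own replicate. All arrays were kept under their labels, and each result is given with all arrays as labelled, without these 2 doubted arrays, and in 3151T4 alone.

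**Figure D1:**
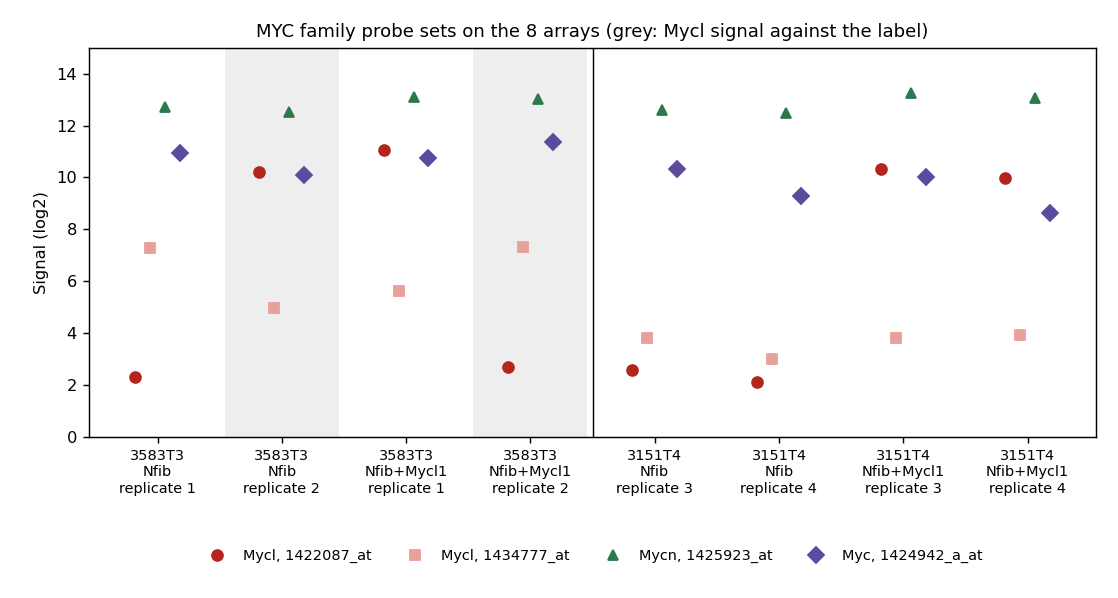
Log2 signal of 4 MYC family probe sets (y axis) on each of the 8 arrays (x axis), 1 point per array, with the 2 doubted arrays shaded grey. The first Mycl probe set lies at 9.99 or above on 4 arrays and at 2.67 or below on the other 4, and on the shaded arrays this goes against the label, whereas the Mycn probe set lies between 12.49 and 13.26 on all 8.

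With all arrays as labelled the Mycl difference was 4.22 and did not pass the test (adjusted p = 0.104). In 3151T4 alone Mycl rose by 7.83 ± 0.302 on the log2 scale (SE, n = 2 arrays a group; limma across all genes tested, Benjamini-Hochberg adjusted p = 2.24e-10). Without the 2 doubted arrays it was 8.14 higher, a value given with no test because the Mycl signal chose which arrays were left out. A second Mycl probe set did not follow the vector: in 3151T4 it read 3.81 and 3.00 with Nfib and 3.79 and 3.92 with both. In 3583T3 it ran opposite to the first, with 7.28 (Nfib) and 5.60 (both) in replicate 1 and 4.95 and 7.30 under these labels on the doubted arrays. Among the 13 listed genes of the MYC and MAX network, 11 were tested, and none was called as labelled. Without the doubted arrays 3 rose (27.3%, against 13.1% of all genes). In 3151T4 alone 4 rose (36.4%, against 16.9% of all genes) and 1 fell. Mycl, the gene of the added vector, is counted among the rises in both settings. Without the doubted arrays its own signal chose the arrays left out, so its place in that count is no support. Max, the shared partner, rose by 0.48 ± 0.14 (SE) without the doubted arrays (adjusted p = 0.0228), and Mnt, a repressor that also pairs with Max, by 0.72 ± 0.20 (adjusted p = 0.0178). Both calls were lost when the 3151T4 Nfib replicate 4 array was also left out, with 0.46 for Max (adjusted p = 0.0831) and 0.73 for Mnt (adjusted p = 0.0563), and leaving out other single arrays ended them too. Mxd4, another repressor of the network, fell in 3151T4 alone by 0.66 (adjusted p = 0.00226). Myc differed by -0.39 without the doubted arrays and did not pass the test. Mycn, on the probe set used, was high on all 8 arrays, from 12.49 to 13.26, with a change of 0.54 that did not pass the test (adjusted p = 0.0771) without the doubted arrays and a rise of 0.62 (adjusted p = 0.0184) in 3151T4. This probe set read 2.03 to 2.56 on the 4 untransfected arrays and 12.19 or above on all 12 arrays with any vector. Another Mycn probe set read 2.81 to 4.93 on the 8 arrays and changed the other way. In limma it fell by 0.75 in 3151T4 (adjusted p = 0.0118) and by 0.81 without the doubted arrays (adjusted p = 0.0217). The direction of the Mycn change thus depended on the probe set. The Nfib probe set used read 9.82 to 10.45 on the 8 arrays, no higher than the 10.48 to 10.76 of the untransfected cells, so this probe set gave no check of the Nfib label. Its difference between groups was -0.05 as labelled and did not pass the test.

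The cells were checked against markers of the tumour and of other cell types. Of 29 neuroendocrine genes, 26 had a probe set and 14 of these, with Chga, Chgb, Syp, Neurod1, Insm1 and Dll3 among them, stayed below log2 4 on all 8 arrays. Ncam1 (11.53 to 12.37), Cpe (12.08 to 12.66) and Uchl1 (7.88 to 10.21) had signal on all 8. The neuroendocrine label thus rests on few of its defining genes in these cultures. Macrophage markers were near the floor: 13 of 20, with Ptprc, Tyrobp and C1qa among them, were below log2 4 on all 8 arrays, and their summed linear signal was 260 to 698 with Nfib and 252 to 336 with both. Endothelial markers summed to 559 to 2823 with Nfib and 658 to 1210 with both, and 9 of 14, with Pecam1, Cdh5 and Vwf among them, were below log2 4 on all 8. The others had signal on some arrays. Esam read 9.52 with Nfib and 5.54 with both in 3583T3 replicate 1, and 5.26 and 9.17 under these labels on the doubted arrays. Fibroblast markers had signal for all 18 genes, with sums of 34339 to 66932 with Nfib and 36617 to 43009 with both.

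With all arrays as labelled, 1486 of 8777 genes passed the test (16.9% called), 780 higher with Nfib+Mycl1 (8.89%) and 706 lower (8.04%). A call is a Benjamini-Hochberg adjusted p under 0.05 in limma, over all genes tested. This count rested on single 3151T4 arrays: it was 0 without Nfib replicate 4, 1 without Nfib+Mycl1 replicate 3, 683 without Nfib replicate 3 and 728 without Nfib+Mycl1 replicate 4. It was 975 without the 3583T3 Nfib+Mycl1 replicate 1 array, and limma still gave 2206 and 2231 genes at an unadjusted p under 0.05 where it called 0 and 1. No single call as labelled below therefore holds without 3151T4 Nfib replicate 4. Without the 2 doubted arrays, 2420 genes were called (27.6%), 1148 higher (13.1%) and 1272 lower (14.5%), and 700 of them changed at least 2-fold. Leaving out a further 3151T4 array gave 1205 (Nfib replicate 4), 1308 (Nfib+Mycl1 replicate 3) and 1446 (Nfib replicate 3). In 3151T4 alone, 3507 genes were called (40%), 1486 higher (16.9%) and 2021 lower (23%), and 1235 changed at least 2-fold. Without its Nfib replicate 4 array the count was 2296. Falls were the larger group among the calls of at least 2-fold, 452 against 248 rises without the doubted arrays and 820 against 415 in 3151T4. The split of all calls moved with scaling: after centring each array on its median without the doubted arrays it became 1468 rises to 1043 falls, and in 3151T4 1874 to 1697. The median change of all genes tested was -0.022 as labelled, -0.036 without the doubted arrays and -0.046 in 3151T4.

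Nup210, a nuclear pore membrane protein, had the largest called rise as labelled, and the largest after Mycl itself in the other settings. Its signals in 3151T4 were 5.0 and 5.37 with Nfib and 9.44 and 9.68 with both. In 3583T3 replicate 1 it went from 8.61 with Nfib to 10.73 with both. On the doubted arrays it read 10.44 under the Nfib label and 9.24 under the Nfib+Mycl1 label. The groups overlapped as labelled and did not overlap without these 2, which is no further support for a gene named for its large change. The rise was 2.42 as labelled (adjusted p = 0.0275), 3.62 ± 0.483 (SE, n = 3; adjusted p = 3.58e-04) without the doubted arrays, and 4.38 ± 0.230 (adjusted p = 3.41e-09) in 3151T4.

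Other large rises were of genes with varied roles. Qtrt1, the catalytic subunit of the enzyme that puts queuine into tRNA, read 6.97 and 6.94 with Nfib and 8.98 and 9.25 with both in 3151T4. It read 7.81 and 9.29 in 3583T3 replicate 1. Qtrt1 rose by 1.93 ± 0.185 without the doubted arrays (adjusted p = 1.09e-04). Pus1, a pseudouridine synthase of tRNA, rose by 1.81 ± 0.221 (adjusted p = 2.29e-04), and Fastkd1, a mitochondrial RNA-binding protein, by 1.83 ± 0.214 (adjusted p = 2.01e-04). For Qtrt1, Pus1 and Fastkd1, every array with both vectors was above every array with Nfib once the doubted arrays were left out. The same held for Dyrk3, Reep6, Mcrip2 and Tub below, but not for Tnnt2 and Syce2. All were named as large rises of that fit, so the gap is no further support. Dyrk3, a protein kinase, read 4.14 on both 3151T4 Nfib arrays and 6.31 and 6.15 with both, and rose by 1.92 ± 0.271 (adjusted p = 5.18e-04). Reep6, a membrane-shaping protein of the endoplasmic reticulum, rose by 1.99 ± 0.265 (adjusted p = 3.58e-04), and Mcrip2 by 1.84 ± 0.245 (adjusted p = 3.58e-04). Tnnt2, the cardiac troponin T, rose by 1.97 ± 0.392 (adjusted p = 0.00324) on a background of higher signal in 3151T4 (10.31 and 10.36 with Nfib) than in 3583T3 (6.17 in replicate 1). Syce2, a protein of the meiotic synaptonemal complex, rose by 1.78 ± 0.361 (adjusted p = 0.00358). Tub, the tubby protein, read 5.92 and 6.10 with Nfib and 8.80 and 9.14 with both in 3151T4, a rise of 2.96 ± 0.243 there (adjusted p = 3.22e-07). Asb5, a subunit of ubiquitin ligases, rose by 3.03 ± 0.27 in 3151T4 (adjusted p = 7.64e-07) and Cytip, a cytohesin-binding protein, by 2.46 ± 0.215 (adjusted p = 6.04e-07). As labelled, Nop14, Pum3, Dusp9, Rcc2 and Pprc1 were also among the 8 largest rises, from 1.30 for Rcc2 and Pprc1 to 1.40 for Nop14.

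The canonical E-box of MYC family proteins was sought in the RefSeq promoters of these genes (build GRCm38.p6), as the 250 bases before the gene start. CACGTG reads the same on both strands. Genes shown are risers named above or ribosome biogenesis genes whose window held the motif, printed 5′ to 3′ on the gene's strand with the motif in capitals. Qtrt1 lies at chr9:21411587-21411836, Nop2 (a nucleolar methyltransferase of ribosomal RNA) at chr6:125131633-125131882, Imp4 (a factor of the small ribosomal subunit) at chr1:34439579-34439828 and Syce2 at chr8:84872008-84872257, all on the plus strand.
Qtrt1: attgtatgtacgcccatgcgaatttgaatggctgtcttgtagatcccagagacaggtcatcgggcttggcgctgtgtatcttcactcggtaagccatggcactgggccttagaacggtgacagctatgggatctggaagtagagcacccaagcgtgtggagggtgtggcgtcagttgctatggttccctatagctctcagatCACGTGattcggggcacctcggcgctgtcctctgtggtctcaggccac
Nop2: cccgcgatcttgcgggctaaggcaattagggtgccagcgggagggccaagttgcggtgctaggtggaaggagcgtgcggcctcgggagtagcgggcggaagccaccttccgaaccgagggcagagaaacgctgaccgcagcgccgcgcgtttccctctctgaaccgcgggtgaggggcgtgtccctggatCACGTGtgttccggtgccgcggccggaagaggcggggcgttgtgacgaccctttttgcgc
Imp4: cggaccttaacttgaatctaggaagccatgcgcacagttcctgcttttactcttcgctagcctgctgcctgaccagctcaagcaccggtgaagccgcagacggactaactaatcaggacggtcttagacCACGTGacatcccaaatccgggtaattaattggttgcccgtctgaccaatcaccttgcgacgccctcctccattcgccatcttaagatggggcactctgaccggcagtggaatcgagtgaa
Syce2: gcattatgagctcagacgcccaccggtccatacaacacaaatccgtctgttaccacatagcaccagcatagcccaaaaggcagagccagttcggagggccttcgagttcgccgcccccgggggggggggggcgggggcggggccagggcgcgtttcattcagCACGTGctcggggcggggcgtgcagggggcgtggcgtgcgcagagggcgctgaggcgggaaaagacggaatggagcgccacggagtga
The motif lay 48 bases before the start in Qtrt1, 60 in Nop2, 121 in Imp4 and 88 in Syce2. A window with the motif was found for 1978 of all 32851 promoters (6.0%) and for 717 of the 7123 genes tested that had an entry (10.1%). Of the genes called higher without the doubted arrays, 109 of 944 held it (11.5%), against 94 of 1016 called lower (9.3%) and 514 of 5163 not called (10.0%). In 3151T4 the shares were 12% of the genes called higher, 9.0% of those called lower and 9.9% of the rest. Among ribosome biogenesis genes 3 of 48 held it (6.2%), not all of them printed here. These are counts of letters in a short window and say nothing of binding.

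Genes of ribosome assembly rose as a group. The list of ribosome biogenesis and nucleolar genes had 54 members tested; 35 rose and none fell as labelled, 48 rose without the doubted arrays, and 50 rose in 3151T4, none falling in either. Its median change was 0.69, 0.99 and 1.31 in these settings, against medians of all genes near 0. Tcof1, which supports transcription of ribosomal DNA, read 7.82 and 7.63 with Nfib and 9.87 and 9.39 with both in 3151T4, and 8.22 and 9.69 in 3583T3 replicate 1. Its rise was 1.75 ± 0.197 without the doubted arrays (adjusted p = 1.97e-04). Nip7, a late factor of the large subunit, rose by 1.36 ± 0.147 (adjusted p = 1.97e-04). Utp20 of the small subunit processome rose by 1.33 ± 0.165 (adjusted p = 2.56e-04). Ppan, another large subunit factor, rose by 1.44 ± 0.185 (adjusted p = 3.21e-04) and Nolc1, a nucleolar scaffold, by 1.74 ± 0.241 (adjusted p = 4.87e-04). Rrp9, which binds the U3 RNA, rose by 2.32 ± 0.228 in 3151T4 (adjusted p = 1.90e-06). Nop2 read 9.01 and 9.06 with Nfib and 10.85 and 11.04 with both in that line, and Imp4 8.28 and 8.27 against 9.62 and 9.27. For Tcof1, Nip7, Utp20, Ppan and Nolc1 the groups did not overlap once the doubted arrays were left out. These genes were named for their changes on these arrays, so the gap is no further support. The share of all genes without overlap was not counted.

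The other lists of cell growth also rose more often than they fell. Of 45 mitochondrial ribosome and import genes, 23 rose as labelled, 32 without the doubted arrays and 35 in 3151T4, with none falling. Tomm40, the import channel of the outer membrane, rose by 1.47 ± 0.20 without the doubted arrays (adjusted p = 4.72e-04) and Mrpl12 of the large mitochondrial subunit by 0.91 ± 0.13 (adjusted p = 5.19e-04). Of 26 translation factors and aminoacyl-tRNA synthetases, 12, 15 and 18 rose in the 3 settings and none fell. Farsa, a subunit of the phenylalanyl-tRNA synthetase, rose by 1.07 ± 0.18 (adjusted p = 0.00135), and Vars, the valyl-tRNA synthetase, by 1.51 ± 0.29 (adjusted p = 0.00249). Among 26 nucleotide and polyamine synthesis genes, 11, 13 and 17 rose; 1 fell as labelled and none in the other settings. Umps, which makes uridine monophosphate, rose by 1.42 ± 0.17 (adjusted p = 2.01e-04). Gart of purine synthesis rose by 1.23 ± 0.14 (adjusted p = 2.01e-04), and Cad, which starts pyrimidine synthesis, by 1.49 ± 0.22 (adjusted p = 6.36e-04). Of 32 nuclear pore and Ran transport genes, 14, 17 and 20 rose and none fell. Ranbp1, a cofactor of the transport GTPase Ran, read 11.14 and 11.11 with Nfib and 12.45 and 12.04 with both in 3151T4 and rose by 1.09 ± 0.13 without the doubted arrays (adjusted p = 2.01e-04).

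Replication genes rose more often than they fell. Of 41 DNA replication and S phase genes, 14 rose and 1 fell as labelled, 22 rose without the doubted arrays and 21 in 3151T4, with none falling in the latter. Ccne1, the cyclin that opens S phase, read 7.48 and 7.61 with Nfib and 8.79 and 8.79 with both in 3151T4, and rose by 1.07 ± 0.16 without the doubted arrays (adjusted p = 7.70e-04). Orc2 of the origin complex rose by 1.42 ± 0.22 (adjusted p = 9.00e-04) and Pola2 of DNA polymerase alpha by 0.98 ± 0.16 (adjusted p = 0.00115). Of 39 G2/M and mitosis genes, 8 rose as labelled, 6 without the doubted arrays and 12 in 3151T4. The 6 of 39 are 15.4%, near the 13.1% of all genes called higher in that setting. Bub1b, a spindle checkpoint kinase, rose by 0.75 ± 0.15 (adjusted p = 0.00365) and the kinesin Kif20a by 0.85 ± 0.21 (adjusted p = 0.00995). Among 24 cell cycle inhibitors, D cyclins and p53 pathway genes, 5 fell and 1 rose as labelled and without the doubted arrays. In 3151T4 10 fell and 1 rose. The shares that fell were 20.8%, 20.8% and 41.7%, against 8.04%, 14.5% and 23% of all genes in the 3 settings. Cdkn2b, the p15 inhibitor of Cdk4, fell by 1.26 ± 0.25 without the doubted arrays (adjusted p = 0.00317). Rbl2, a relative of Rb1, fell by 0.92 ± 0.17 (adjusted p = 0.0021), and Cdkn2d, the p19 inhibitor of Cdk4, by 0.99 ± 0.20 (adjusted p = 0.0035).

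**Figure D2:**
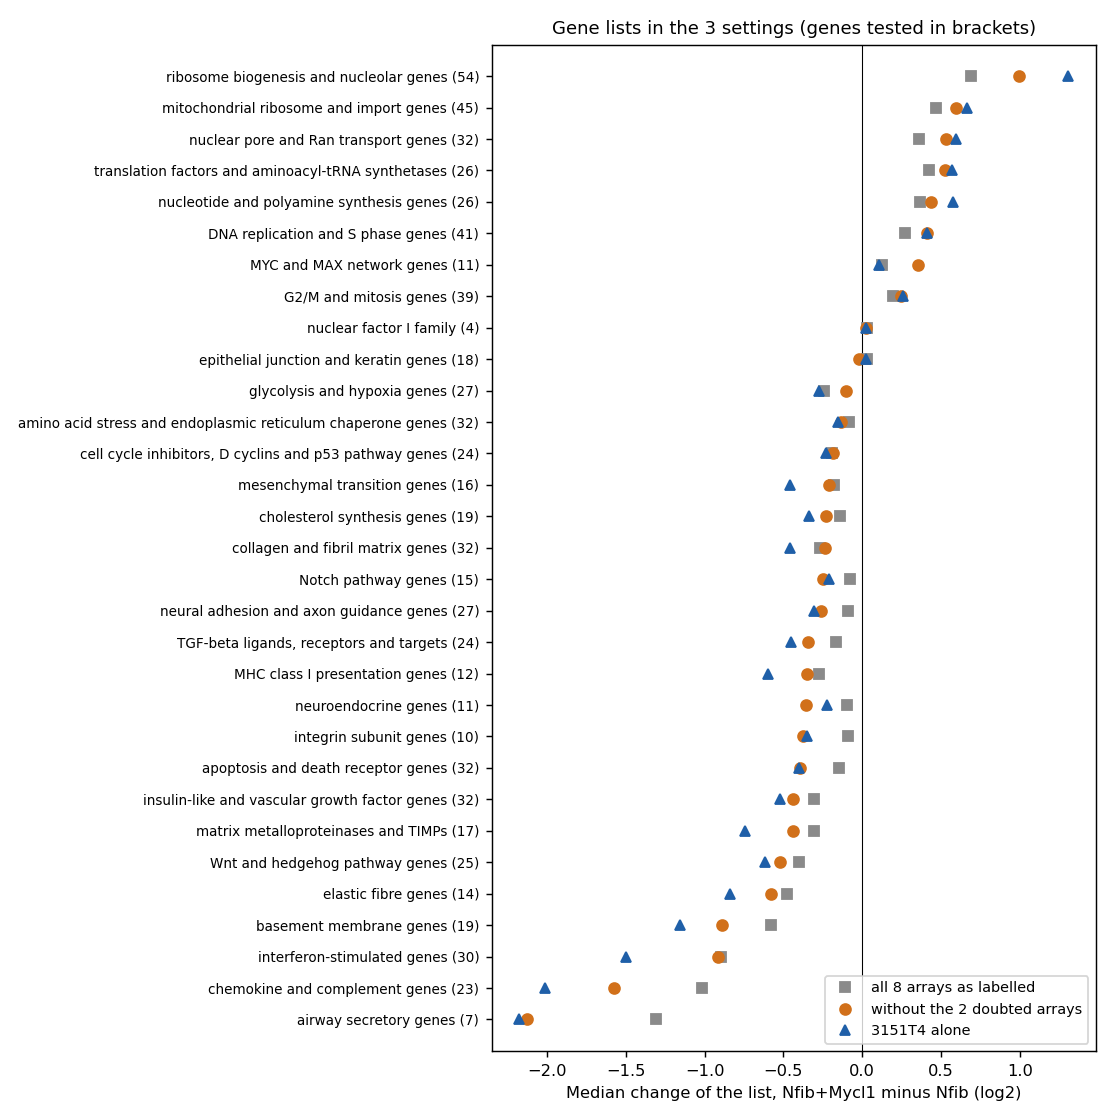
Median log2 change of each gene list, Nfib+Mycl1 minus Nfib (x axis), for the pathway lists (y axis, with the number of genes tested in brackets), in 3 settings. Lists of ribosome biogenesis (0.69, 0.99 and 1.31) and of the other growth genes lie to the right of 0, and chemokine and complement genes (-1.02, -1.58 and -2.02) and interferon-stimulated genes (-0.90, -0.92 and -1.5) lie to the left.

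Mmp3 was among the largest falls in all 3 settings. Mmp3, the matrix protease stromelysin, read 11.77 on both 3151T4 Nfib arrays and 7.20 and 6.96 with both vectors. In 3583T3 replicate 1 it went from 11.60 to 9.34, and the doubted arrays read 9.96 under the Nfib label and 11.56 under the Nfib+Mycl1 label. Mmp3 fell by 2.51 as labelled (adjusted p = 0.0467), by 3.88 ± 0.662 without the doubted arrays (adjusted p = 0.00141) and by 4.69 ± 0.183 in 3151T4 (adjusted p = 2.24e-10). Npas2, a clock transcription factor, fell by 3.1 ± 0.51 without the doubted arrays (adjusted p = 0.00116), and C4bp, an inhibitor of complement, by 2.97 ± 0.288 (adjusted p = 1.09e-04). Shisa2 fell by 3.27 ± 0.751 (adjusted p = 0.00704) and Ppp1r3c, a glycogen-targeting subunit of protein phosphatase, by 3.13 ± 0.627 (adjusted p = 0.00336). Other large falls were called in 3151T4 in genes with signals of 3.76 or below on the 4 arrays of 3583T3. Scara5, a ferritin receptor, read 9.42 and 9.88 with Nfib and 3.23 and 3.92 with both in 3151T4, against 2.12 to 2.88 on the 4 arrays of 3583T3. Its fall in 3151T4 was 6.08 ± 0.243 (adjusted p = 2.24e-10), the largest named. Ecrg4, a secreted precursor, fell there by 5.02 ± 0.199 (adjusted p = 2.24e-10), Agtr2, an angiotensin receptor, by 5.0 ± 0.316 (adjusted p = 1.76e-08), and Hsd11b1, which activates glucocorticoids, by 4.56 ± 0.181 (adjusted p = 2.24e-10). In 3583T3 replicate 1, Ecrg4 read 3.05 and 3.20, Agtr2 2.13 and 2.43 and Hsd11b1 3.41 and 3.1.

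**Figure D3:**
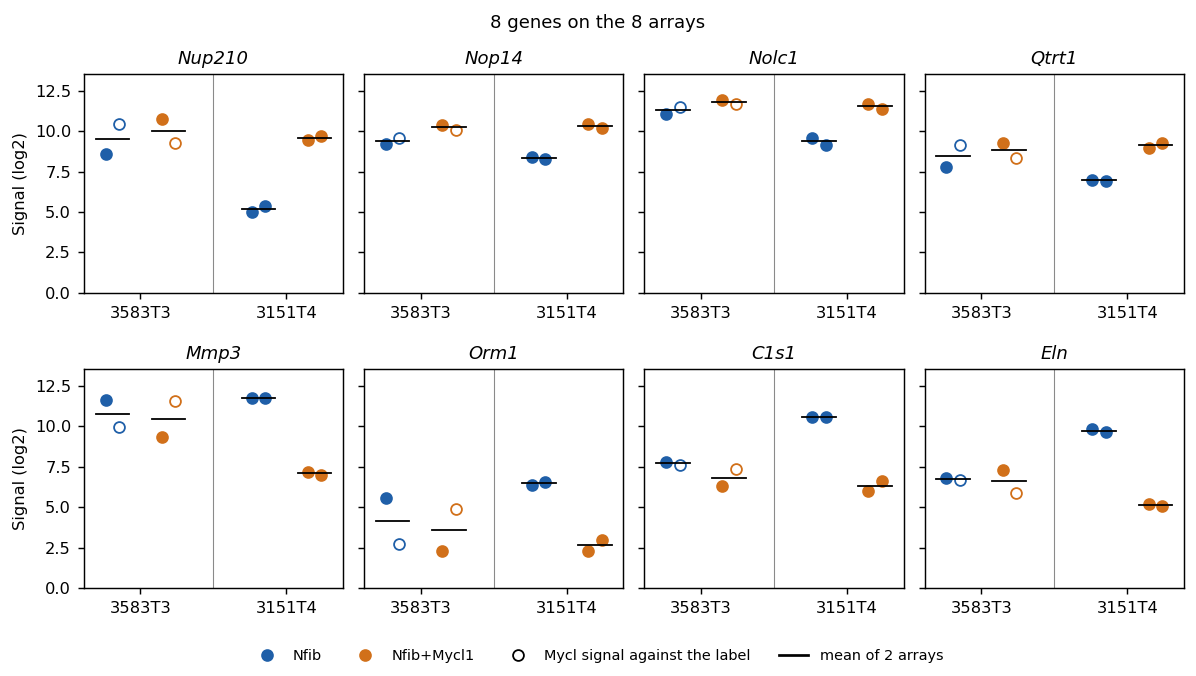
Log2 signal (y axis) of 8 genes by line (x axis), 1 point per array, blue for Nfib and orange for Nfib+Mycl1, open points for the 2 doubted arrays, and bars for the mean of 2 arrays. Nup210, Nop14, Nolc1 and Qtrt1 are higher with both vectors in 3151T4, Mmp3, Orm1, C1s1 and Eln lower, and in 3583T3 the open points of Nup210 (10.44 and 9.24) and Mmp3 (9.96 and 11.56) lie in the opposite order to the filled ones.

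Chemokine, complement and acute-phase genes fell together. Of 23 tested, 9 fell as labelled, 13 without the doubted arrays and 19 in 3151T4, where 1 rose; none rose in the other settings. Orm1, an acute-phase protein of plasma, read 6.39 and 6.54 with Nfib and 2.31 and 3.00 with both in 3151T4, and 5.55 and 2.27 in 3583T3 replicate 1. Orm1 fell by 3.63 ± 0.248 without the doubted arrays (adjusted p = 3.91e-06). C1s1, a protease of the first complement component, read 10.59 and 10.58 with Nfib and 5.98 and 6.59 with both in 3151T4, and fell by 3.36 ± 0.43 (adjusted p = 3.00e-04). Its partner C1ra fell by 2.75 ± 0.47 (adjusted p = 0.0014). Cxcl5, a neutrophil-attracting chemokine, fell by 3.29 ± 0.57 (adjusted p = 0.00157), and Lbp, which presents bacterial lipopolysaccharide, by 3.34 ± 0.685 (adjusted p = 0.00382). Among 7 airway secretory genes tested, 1 fell as labelled, 3 without the doubted arrays and 6 in 3151T4. Lcn2, which binds bacterial iron carriers, fell by 2.66 ± 0.30 without the doubted arrays (adjusted p = 1.97e-04). Bpifb1, a secreted airway protein, read 12.72 and 12.51 with Nfib and 8.21 and 7.40 with both in 3151T4, but 4.86 and 4.97 in 3583T3 replicate 1. Macrophage markers beside these genes: none of 18 passed the test as labelled or without the doubted arrays, and 5 fell in 3151T4, among them Cd53 (8.36 and 8.57 with Nfib, 5.10 and 4.80 with both) and Csf1r. Cd74, an antigen-presenting cell marker, fell there by 2.42 (adjusted p = 3.59e-07). The part of these markers in the falls was not tested. In bulk RNA, fewer cells of a kind and less RNA per cell cannot be told apart.

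Interferon-stimulated genes fell in 3151T4, and this fall differed between the lines in the test given further on. Of 30 tested, 9 fell as labelled, 10 without the doubted arrays and 28 in 3151T4, none rising. Irf9, a subunit of the interferon-activated factor ISGF3, read 9.50 and 9.63 with Nfib and 6.17 and 6.41 with both in 3151T4, a fall of 3.27 ± 0.21 (adjusted p = 1.94e-08). The antiviral gene Ifit3 fell there by 3.61 ± 0.21 (adjusted p = 9.30e-09) and Gbp2, a guanylate-binding protein, by 3.03 ± 0.22 (adjusted p = 9.17e-08). In 3583T3 replicate 1, Irf9 read 8.73 and 8.84, Ifit3 7.12 and 7.53 and Gbp2 4.42 and 4.22. The replicate 1 pair of 3583T3 was above 0 for 25 of the 30 genes, with a median of 0.97, and the replicate 2 pair, as labelled, was above 0 for 4, with a median of -1.18. The MHC class I genes, which interferon also raises, showed 2 falls of 12 as labelled, 3 falls and 1 rise without the doubted arrays, and 8 falls in 3151T4. The shares that fell were 16.7%, 25% and 66.7%, against 8.04%, 14.5% and 23% of all genes. H2-K1 fell by 0.83 ± 0.15 in 3151T4 (adjusted p = 6.60e-04).

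Matrix genes fell mainly in 3151T4. Of 19 basement membrane genes, 3 fell as labelled, 10 without the doubted arrays and 15 in 3151T4, none rising, with medians of -0.58, -0.89 and -1.16; the 3583T3 replicate 1 pair had a median of -0.06. Lamb1, a laminin chain, read 10.92 and 10.86 with Nfib and 9.22 and 9.44 with both in 3151T4, and 11.23 and 10.83 in 3583T3 replicate 1; it fell by 1.17 ± 0.22 without the doubted arrays (adjusted p = 0.00213). Col4a5, a chain of collagen IV, was lower with both vectors in each pair, the doubted one included (11.21 and 10.48), and fell by 0.94 as labelled (adjusted p = 0.00986). The proteoglycan Agrn fell by 0.89 ± 0.17 (adjusted p = 0.00223) and Col15a1, a collagen linking the basement membrane to the stroma, by 4.65 ± 0.25 in 3151T4 (adjusted p = 4.99e-09). Of 32 collagen and fibril genes, 1 rose and 1 fell as labelled, 4 fell without the doubted arrays, and 17 fell and 1 rose in 3151T4. The share that fell, 3.12% as labelled and 12.5% without the doubted arrays, was below that of all genes (8.04% and 14.5%), and the 3583T3 replicate 1 pair was above 0 for 19 of the 32, with a median of 0.13. Dcn, the proteoglycan decorin, read 12.03 and 11.37 with Nfib and 8.87 and 8.08 with both in 3151T4 and 10.90 and 8.70 in 3583T3 replicate 1. It fell by 2.88 ± 0.52 without the doubted arrays (adjusted p = 0.00199). Col11a1, a minor fibrillar collagen, fell by 1.70 ± 0.26 (adjusted p = 8.20e-04).

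Elastic fibre genes showed 2 falls of 14 as labelled, 3 without the doubted arrays and 10 in 3151T4, where 1 rose. These falls are 14.3%, 21.4% and 71.4% of the list, against 8.04%, 14.5% and 23% of all genes in the 3 settings. Eln, elastin itself, read 9.81 and 9.64 with Nfib and 5.22 and 5.09 with both in 3151T4, a fall of 4.57 ± 0.199 (adjusted p = 6.65e-10), but 6.83 and 7.30 in 3583T3 replicate 1. Fbln5, which assembles elastic fibres, fell by 0.99 ± 0.13 without the doubted arrays (adjusted p = 3.33e-04). Of 17 matrix metalloproteinases and TIMPs, 3, 4 and 11 fell in the 3 settings and none rose. The shares that fell were 17.6%, 23.5% and 64.7%, against 8.04%, 14.5% and 23% of all genes. Besides Mmp3, the protease Mmp19 fell by 2.59 ± 0.52 without the doubted arrays (adjusted p = 0.00336), and Timp3, an inhibitor of these proteases, by 0.50 ± 0.10 (adjusted p = 0.00357). Of 10 integrin subunits tested, none was called as labelled. Without the doubted arrays 2 fell (20%, against 14.5% of all genes) and in 3151T4 5 fell (50%, against 23%). The call of Itga7 (a fall of 0.88 in 3151T4, adjusted p = 0.00206) was among those in 3151T4. Fibroblast markers fell mainly in 3151T4: of 18, 2 fell as labelled, 3 without the doubted arrays and 11 in 3151T4, where 1 rose, and 8 of the 18 are also in the collagen list. The shares of 11.1% as labelled and 16.7% without the doubted arrays lie near the 8.04% and 14.5% of all genes. In 3151T4 the share was 61.1%, against 23% of all genes. The part of the fibroblast markers in the falls of matrix genes was not tested.

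Among ligands and receptors, growth factor genes fell more often than they rose. Of all genes, 8.04% fell as labelled, 14.5% without the doubted arrays and 23% in 3151T4. In these settings the shares that fell were 9.38%, 28.1% and 56.2% for growth factor genes and 16.7%, 20.8% and 37.5% for TGF-beta genes. For Notch genes they were 6.67%, 6.67% and 26.7%, near those of all genes or below. Of 32 insulin-like and vascular growth factor genes, 3 fell and 1 rose as labelled, 9 fell and 1 rose without the doubted arrays, and 18 fell and 1 rose in 3151T4. The 1 that rose was Pdgfb, a platelet-derived growth factor chain, with 4.89 and 4.82 with Nfib and 6.26 and 6.61 with both in 3151T4, and 5.07 and 6.09 in 3583T3 replicate 1, a rise of 1.39 ± 0.19 without the doubted arrays (adjusted p = 4.79e-04). Its receptor gene Pdgfra fell in 3151T4 by 3.05 ± 0.17 (adjusted p = 6.73e-09), from 12.71 and 12.49 to 9.44 and 9.66. Vegfd, a ligand of lymphatic vessel receptors, fell there by 4.11 ± 0.216 (adjusted p = 3.41e-09), and Igfbp7 by 0.71 ± 0.14 without the doubted arrays (adjusted p = 0.00305). Of 25 Wnt and hedgehog genes, 5, 9 and 13 fell and none rose. The ligand Wnt5a fell by 1.77 ± 0.33 without the doubted arrays (adjusted p = 0.00213), the receptors Fzd8 by 1.55 ± 0.30 (adjusted p = 0.00262) and Fzd4 by 1.05 ± 0.22 (adjusted p = 0.00445), and the Wnt target Axin2 by 1.69 ± 0.37 (adjusted p = 0.0054). Of 24 TGF-beta genes, 4 fell and 1 rose as labelled, 5 fell and 2 rose without the doubted arrays, and 9 fell and 2 rose in 3151T4. The ligand Tgfb3 fell by 0.92 ± 0.16 without the doubted arrays (adjusted p = 0.0014) and the target Id2 by 1.31 ± 0.30 (adjusted p = 0.00731). Of 15 Notch genes, 1 was called as labelled and without the doubted arrays, and 4 fell in 3151T4. Hes6, a helix-loop-helix factor of this pathway, fell by 0.74 ± 0.14 without the doubted arrays (adjusted p = 0.00276).

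Lists of cell identity gave calls in both directions or falls alone. Of all genes, 8.04% fell as labelled, 14.5% without the doubted arrays and 23% in 3151T4. In these settings 6.25%, 18.8% and 50% of the mesenchymal genes fell. The shares were 11.1%, 16.7% and 11.1% for epithelial junction and keratin genes and 9.09%, 9.09% and 27.3% for neuroendocrine genes. Of 18 epithelial junction and keratin genes, 1 rose and 2 fell as labelled, 1 rose and 3 fell without the doubted arrays, and 4 rose and 2 fell in 3151T4. Cdh1, E-cadherin, read 12.67 and 11.46 in 3583T3 replicate 1 and 8.19 and 8.41 with Nfib against 7.29 and 7.66 with both in 3151T4, and fell by 0.95 ± 0.17 without the doubted arrays (adjusted p = 0.00183). The keratin Krt19 rose in 3151T4 by 1.63 ± 0.20 (adjusted p = 1.61e-05). Of 16 mesenchymal genes, 1 fell as labelled, 3 without the doubted arrays and 8 in 3151T4, none rising; the transcription factor Snai2 fell there by 0.90 ± 0.23 (adjusted p = 0.00511). Of the 11 neuroendocrine genes tested, 1 fell as labelled and 1 without the doubted arrays, and 2 rose and 3 fell in 3151T4. Those falls were Ncam1, Syn1 and Eno2, and the rises were Ddc and Uchl1. The fall of Ncam1, an adhesion protein of nerve cells, was 0.38 (adjusted p = 0.0418) and lost its call in that line without Nfib replicate 3 (-0.40, adjusted p = 0.141), Nfib replicate 4 (-0.36, 0.197) or Nfib+Mycl1 replicate 3 (-0.23, 0.347). Among 27 neural adhesion and axon guidance genes, 2, 4 and 8 fell and 5 rose in 3151T4. These falls are 7.41%, 14.8% and 29.6% of the list, near the 8.04%, 14.5% and 23% of all genes in the 3 settings. The semaphorin receptor Nrp1 fell by 0.62 ± 0.12 without the doubted arrays (adjusted p = 0.00358), and Slit2, a guidance ligand, by 1.70 ± 0.37 (adjusted p = 0.00577). The lung epithelium markers Abca3, a lipid transporter, and Hopx fell by 1.00 ± 0.17 (adjusted p = 0.00127) and 2.29 ± 0.40 (adjusted p = 0.00159). Of 13 such markers with a probe set, 6, with Sftpb, Sftpd and Scgb1a1 among them, stayed below log2 4 on all 8 arrays. Of 7 tested, 1 fell as labelled, 3 without the doubted arrays and 5 in 3151T4, none rising. The 3583T3 replicate 1 pair was above 0 for 4 of the 7. Of 10 smooth muscle markers, 1 rose as labelled, 1 rose and 2 fell without the doubted arrays, and 2 rose and 3 fell in 3151T4.

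Metabolic and stress lists were mixed. Of all genes, 8.04% fell as labelled, 14.5% without the doubted arrays and 23% in 3151T4. In these settings the shares that fell were 11.1%, 3.7% and 29.6% for glycolysis and hypoxia genes. They were 21.9%, 18.8% and 21.9% for amino acid stress and chaperone genes, 12.5%, 25% and 40.6% for apoptosis genes and 5.26%, 5.26% and 36.8% for cholesterol genes. Of 27 glycolysis and hypoxia genes, 3 rose and 3 fell as labelled, 2 rose and 1 fell without the doubted arrays, and 4 rose and 8 fell in 3151T4. Hk2, a hexokinase, read 8.26 and 7.95 with Nfib and 10.02 and 9.86 with both in 3151T4 and rose by 1.53 ± 0.24 without the doubted arrays (adjusted p = 9.61e-04). Of 32 amino acid stress and endoplasmic reticulum chaperone genes, 2 rose and 7 fell as labelled, 2 rose and 6 fell without the doubted arrays, and 2 rose and 7 fell in 3151T4. Xbp1, a transcription factor of the unfolded protein response, was lower with both vectors in each pair of arrays and fell by 0.83 as labelled (adjusted p = 0.0129). Edem1, which clears misfolded glycoproteins, fell by 0.78 ± 0.15 without the doubted arrays (adjusted p = 0.0028). Of 32 apoptosis genes, 4 fell as labelled, 8 fell and 1 rose without the doubted arrays, and 13 fell and 2 rose in 3151T4. Cflar, an inhibitor of Casp8, fell by 0.74 ± 0.16 (adjusted p = 0.00503) and Casp8 itself by 0.66 ± 0.15 (adjusted p = 0.00567). Of 19 cholesterol synthesis genes, 1 fell as labelled, 1 rose and 1 fell without the doubted arrays, and 1 rose and 7 fell in 3151T4.

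The genes called in 3151T4 were then read in each pair of 3583T3 arrays, which that fit did not use. Each pair is 1 array against 1, so no test is given. Of the 1486 genes called higher in 3151T4, the replicate 1 pair was above 0 for 1294 (87.1%), with a median of 0.43. Across all genes tested this pair was above 0 for 51.1%. The replicate 2 pair, as labelled, was above 0 for 793 of them (53.4%), near its 52.6% over all genes. Of the 2021 genes called lower, the replicate 1 pair was below 0 for 1508 (74.6%) and the replicate 2 pair for 954 (47.2%). Among the 587 genes at least 2-fold apart in the replicate 1 pair, the replicate 2 pair had the opposite sign for 509 (86.7%), and across these genes, which are not independent, Pearson's r between the pairs was -0.822. Over all 8777 genes the sign was opposite for 4535 (51.7%) and r was -0.407.

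**Figure D4:**
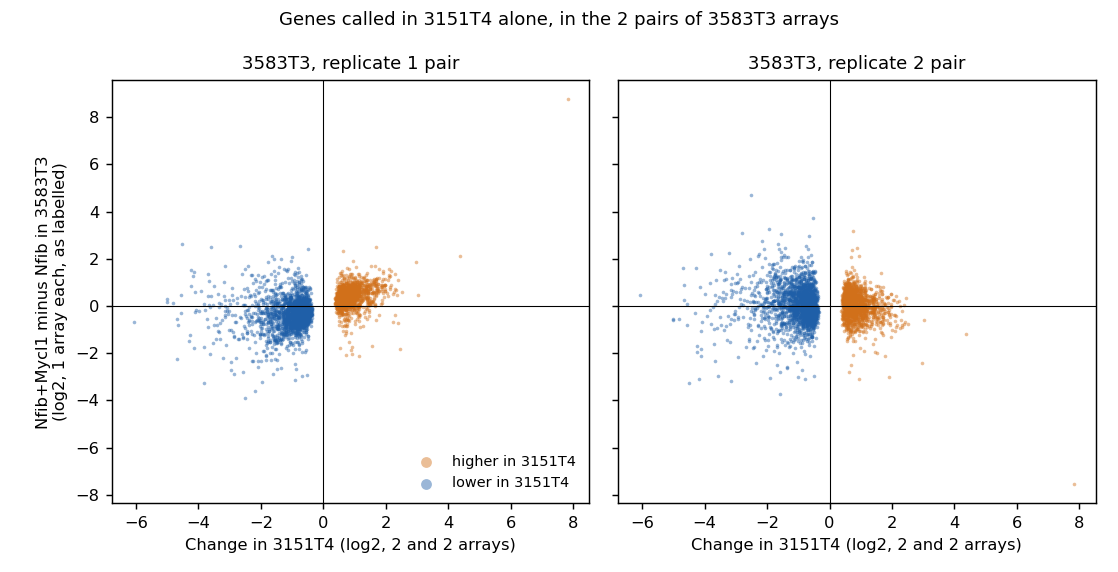
Change in 3151T4 alone (x axis, log2, mean of 2 arrays minus mean of 2) against the difference in the replicate 1 pair (left) and the replicate 2 pair (right) of 3583T3 as labelled (y axis, log2, 1 array minus 1), 1 point per gene called in 3151T4. The orange points, called higher in 3151T4, lie above 0 for 87.1% of genes on the left and 53.4% on the right; the single far point, at 7.83 on the x axis, is Mycl.

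**Figure D5:**
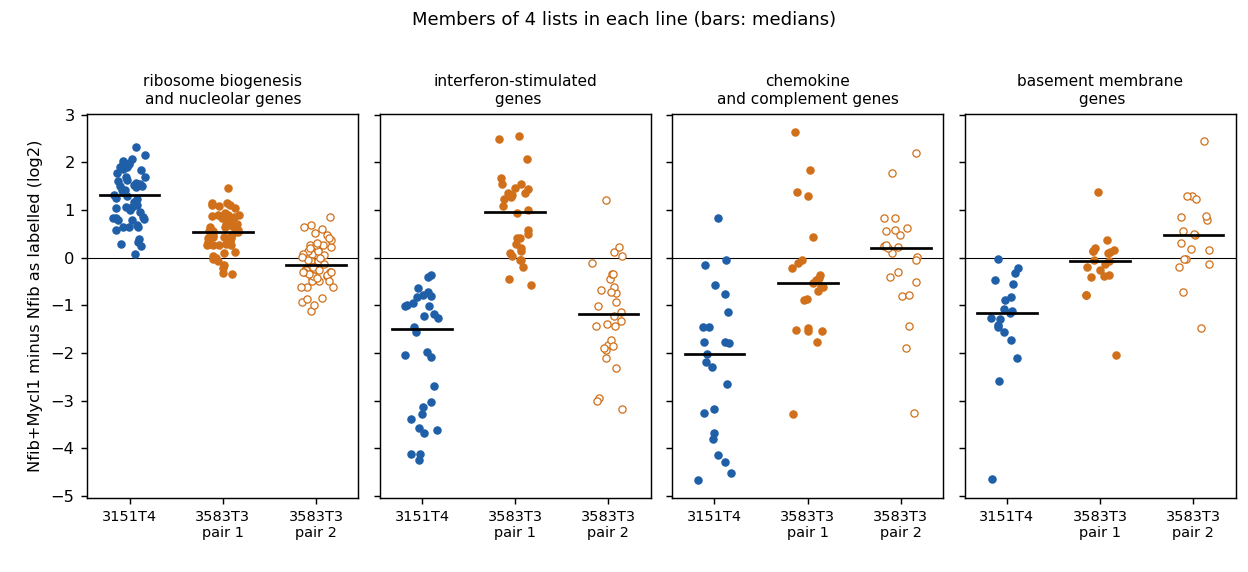
Log2 change of each member of 4 lists (y axis) in 3151T4 (mean of 2 arrays minus mean of 2) and in the replicate 1 and replicate 2 pairs of 3583T3 as labelled (1 array minus 1), 1 point per gene, with bars for medians. Ribosome biogenesis genes have medians of 1.31, 0.54 and -0.16, and interferon-stimulated genes -1.5, 0.97 and -1.18.

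The change was also tested for a difference between the lines, without the 2 doubted arrays, so that 3583T3 rests on 1 array a group and the spread comes from the other groups. The difference, 3583T3 minus 3151T4, was called for 571 genes (6.51%), 431 higher (4.91%) and 140 lower (1.6%). Without the 3151T4 Nfib replicate 3 array the count was 367. Interferon-stimulated genes were called higher for 24 of 30, none lower. Oasl2 read 6.52 and 6.50 with Nfib and 2.65 and 3.20 with both in 3151T4, but 5.29 and 7.79 in 3583T3 replicate 1, a difference of 6.08 (adjusted p = 7.94e-07). Usp18, which shuts off interferon signalling, differed by 5.78 (adjusted p = 8.71e-06), and the chemokine Cxcl14 by 7.15 (adjusted p = 1.97e-07), with 2.65 and 5.30 in 3583T3 replicate 1 and 9.01 and 9.13 against 4.31 and 4.81 in 3151T4. On the doubted arrays Cxcl14 read 6.03 under the Nfib label and 2.78 under the Nfib+Mycl1 label. Oasl2 lost its call when all 16 arrays were used as labelled, and so did Esam, given below, with a difference of 0.1348 there (limma adjusted p = 0.973). Chemokine and complement genes were called higher for 11 of 23 and lower for 1, fibroblast markers and basement membrane genes for 9 of 18 and 9 of 19, and ribosome biogenesis genes lower for 11 of 54. For the last list the 3583T3 replicate 1 pair was above 0 in 47 of 54 genes, with a median of 0.54 against 1.31 in 3151T4. Esam, an endothelial junction protein, differed by -3.81 (adjusted p = 1.51e-05): it read 9.52 and 5.54 in 3583T3 replicate 1 and 2.31 to 2.6 in 3151T4. Cytip differed by -4.28 (adjusted p = 1.74e-05).

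The same vector without Nfib was read in 3151T4 on other arrays, 2 with the Mycl1 vector against 2 of untransfected cells. Both comparisons were contrasts of 1 fit over all arrays of this line and share its spread for each gene. A gene with a small spread is thus more easily called in both, and the overlaps below are not between separate tests. There 2472 genes were called (28.2%), 1154 higher (13.1%) and 1318 lower (15%), and without control replicate 4 and Mycl1 replicate 4 in turn the count was 1492 and 1591. Of the genes called higher with Mycl1 on Nfib in this line, 811 were called higher here (54.6% of that list and 70.3% of this one) and 8 lower. Of those called lower, 992 were called lower here (49.1% and 75.3%) and 5 higher. Ribosome biogenesis genes rose for 45 of 54, with a median of 0.78 against 1.31 on Nfib. Nup210 rose by 3.32 and Mmp3 fell by 3.39, whereas Eln (-0.19), Agtr2 (0.16), Orm1 (-0.16) and Ces2g (-0.10) did not pass the test here and fell on Nfib. The difference between these changes was not tested. The control cells differed in more than the vector: the summed signal of macrophage markers was 6988 to 19930 on the control arrays of both lines and 315 to 500 on the Mycl1 arrays. These markers fell for 18 of 18 tested. However, 13 of the 20 listed stayed below log2 4 on all 8 arrays with the Nfib vector. Such genes could enter the test through the control arrays, where they were high, so a fall was likely in advance and this count is no separate support. The Mycn probe set used above was 10.05 higher with the vector. The part of these differences in the falls, 15 of 23 chemokine and complement genes and 22 of 32 collagen genes among them, was not tested.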

How the data were processed

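Total RNA of 16 samples was measured on Affymetrix arrays of 22690 probe sets. The submitters' processing notes name GCRMA (version 2.20.0) and R (version 2.11.0) for the log2 values the authors deposited; the log2 scale was taken from the range of the values, which lie between 0.475 and 14.4. The number of arrays limits the precision. Probe sets with 1 gene symbol were kept, 64 control probe sets were left out, and each gene was represented by the probe set with the highest mean. Genes above log2 4 on at least 2 of 16 arrays were tested (8777 of 12393). Fold changes near the floor of about log2 2 can be understated.

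Fits used limma 3.58.1 (lmFit, then eBayes with a trend) in R 4.3.3, with Benjamini-Hochberg adjustment over all genes tested: vector and line over 16 arrays; the same without the 2 doubted arrays; 4 group means in 3151T4; 8 means for the difference between lines; and Mycl1 against control in 3151T4. The comparison of Mycl1 with control was a second contrast of the fit of 4 group means in 3151T4, with the same spread. The fits were tested on simulated data. Replicate numbers were checked for pairing: the deviations of same-numbered Nfib and Nfib+Mycl1 arrays correlated at -0.738 in 3583T3 and 0.312 in 3151T4. The value in 3583T3 sets replicate 1 against the doubted arrays in both groups, so it cannot tell whether the numbers pair the samples. No label states a pairing, and the numbers were not taken to pair the samples.

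Genes were named by rule: the largest called changes of each fit, and up to 4 list members with the smallest p in the fit without the doubted arrays. Marker genes named beside counts, and those of the MYC network other than Mycl, Mycn, Myc and Max, were chosen after their values were seen, as were the genes named from the vector without Nfib. The members and gene lists were chosen with earlier results of these data known. Alternatives tried were other filters, scalings, array weights, replicate blocks and leaving out each array.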

Additional observations from a re-analysis of the deposited data

Results flagged for a closer look

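In 11 of 96 groups of 4 arrays (48 genes), 1 array stood apart from the other 3 by Dixon's criterion. Chance alone marks about 1 in 20 groups, but these genes were named for their changes, Mycl was used to doubt 2 arrays and each group mixes both lines, so the count is not set against that rate. Mycl read 10.22 on the array labelled 3583T3 Nfib replicate 2 (2.12 to 2.55 on the others of that label) and 2.67 on its counterpart under the Nfib+Mycl1 label (9.99 to 11.05). On the former array Mmp3 read 9.96 (11.6 to 11.77) and Dyrk3 5.45 (3.93 to 4.14), and on the latter Reep6 read 7.06 (8.07 to 8.26). On 3583T3 Nfib replicate 1, C4bp read 10.32 (5.89 to 6.21), Usp18 7.83 (9.69 to 9.93) and Sox11 9.77 (8.19 to 8.38). On 3583T3 Nfib+Mycl1 replicate 1, Shisa2 read 3.78 (4.96 to 5.19), Cytip 6.14 (6.97 to 7.12) and Dusp9 5.97 (5.53 to 5.6). All 11 values were from arrays of 3583T3.

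The change with Mycl1 differed between the lines for 571 genes (limma, without the doubted arrays, 3583T3 minus 3151T4). The largest positive differences were 7.154 for Cxcl14, 6.082 for Oasl2, 5.777 for Usp18, 5.567 for Ifit1 and 5.447 for Ces2g. The largest negative ones were -4.28 for Cytip, -3.81 for Esam, -3.242 for Tnfrsf11b, -3.239 for Car8 and -2.942 for Sox11. The calls of Tnfrsf11b and Sox11 were lost when single 3151T4 arrays were left out. With all 16 arrays as labelled, those of Oasl2, Car8, Sox11 and Esam were lost, and the Esam difference changed sign, to 0.1348 (limma adjusted p = 0.973).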

How the results depend on the processing

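With all arrays as labelled, the 1486 calls became 3639 with array weights, 2479 with 8 group means, 945 with the replicate block, and 0 with replicates averaged (limma; 1738 at an unadjusted p under 0.05). Leaving out 1 array gave 0 to 2058. A block that crosses the numbers in 3583T3, chosen after seeing the data, gave 1203 calls (638 higher, 565 lower). Without the doubted arrays, 2420 became 3748 over every probe set and 3925 with array weights, and 1205 to 2737 on leaving out 1 array; in 3151T4, 3507 became 5298 over every probe set and 2296 to 3094. The difference between lines gave 367 to 587, and Mycl1 against control 1492 to 2238. The replicate block gave 2044, 3661, 503 and 2634 calls in these 4 fits. Where leaving out an array left 1 in an arm, that array was assumed to vary like the other groups. The difference of Esam between lines turned to 0.1348 with all 16 arrays as labelled. Cnn1 without the doubted arrays ranged from -0.788 to 0.00936 on leaving out 1 array, the latter without 3583T3 Nfib+Mycl1 replicate 1. For single genes, 3277 values kept direction and call under other settings, 86 lost the call, 70 gained it and 1 reversed; on leaving out 1 array, 1406 kept both, 245 lost the call, 18 gained it and 1 reversed. The cause of these changes was not tested.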
